A study of Homo sapiens with 12 samples.

Results

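The genes described are 10 members of the NF-kB pathway: the subunit genes NFKB1, NFKB2 and RELB, the feedback inhibitor genes NFKBIA, NFKBIE and TNFAIP3, and the target genes BIRC3, ICAM1, IER3 and TNFAIP2. They were listed by gene symbol, with earlier results of these data known, and make up 10 of the 60669 gene IDs in the count table. Their counts beside those of all genes are therefore a description. All 10 passed the expression filter, which left 18720 genes for the tests. The study asked which transcripts quinacrine (QC), an antimalarial drug, changes in chemotherapy-sensitive and chemotherapy-resistant ovarian cancer cells. The 6 lines sequenced, which the study calls ovarian cancer lines, were HeyA8, SKOV3 and OV2008 (sensitive) and HeyA8_MDR, SKOV3_TR and OV2008_C13 (resistant). Each resistant line is isogenic with the sensitive line of its family. The labels give line names and no origin. The study's methods give cisplatin resistance for OV2008_C13, carboplatin resistance for HeyA8_MDR and taxol resistance for SKOV3_TR. Each line received 8 µM QC for 6 h or a parallel buffer treatment (vehicle), and 1 library was made per line and treatment, 12 in all. Lines therefore served as the replicates of a group (n = 3 sensitive and n = 3 resistant lines), no line had replicates of its own, and the labels do not say whether libraries came from separate cultures.

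NF-kB is a family of transcription factors that act as dimers and are held in the cytoplasm by IkB proteins until a stimulus such as TNF or IL-1 activates the IkB kinase (IKK) complex, which marks the IkB protein for destruction. The freed dimers enter the nucleus and bind kappaB sites in the promoters of inflammatory, survival and adhesion genes. Several of their targets encode proteins that shut the pathway down again, so that transcripts of NFKBIA and TNFAIP3 are commonly read as markers of the pathway's output. RNA levels do not measure the activity of the proteins.

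Promoter sequence is shown because kappaB sites are the shared feature through which these genes are known to respond to NF-kB. RefSeq windows on GRCh38.p14, from 250 bases before to 50 after a gene's start, were given for 7 of the 10 genes. Those of NFKB1, NFKB2, NFKBIA, TNFAIP3 and BIRC3 held at least 1 match to the kappaB consensus on either strand. The consensus searched was GGGRNWYYCC, where R is A or G, N any base, W A or T, and Y C or T. Over all genes with a window, 7.09% of 27305 held a match. The stretches around the matches are given 5′ to 3′ on the gene's strand, with the matched bases in capitals, and the TNFAIP3, NFKBIA and BIRC3 matches lie on the opposite strand to the gene.
TNFAIP3 (chr6:137867177-137867228, plus strand): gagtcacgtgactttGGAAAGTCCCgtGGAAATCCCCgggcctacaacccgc
NFKBIA (chr14:35404806-35404845, minus strand): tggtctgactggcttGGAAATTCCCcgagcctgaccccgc
NFKB1 (chr4:102501295-102501334, plus strand): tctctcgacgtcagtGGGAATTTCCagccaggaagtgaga
NFKB2 (chr10:102394456-102394524, plus strand): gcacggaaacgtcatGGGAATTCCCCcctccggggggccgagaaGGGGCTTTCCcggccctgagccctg
BIRC3 (chr11:102317270-102317373, plus strand): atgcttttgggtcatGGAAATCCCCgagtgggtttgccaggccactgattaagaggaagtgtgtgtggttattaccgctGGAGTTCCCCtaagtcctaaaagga
The TNFAIP3 stretch carries 2 matches, 67 to 58 and 55 to 46 bases before the gene's start, and the BIRC3 stretch carries 2 matches. The first run of capitals in NFKB2 holds 2 overlapping matches, 1 that reads the same on both strands and 1 on the opposite strand to the gene. NFKB2 has a further window at another start, with 2 matches that are not printed. The windows of ICAM1 and TNFAIP2 held no match to this consensus, and sites that depart from it were not searched for. A match is a description of the sequence, not a measured binding site.

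Depth ran from 17782556 to 30585059 gene counts (median of the 12 libraries 22289428). The counts behind the values of the 10 genes ran from 35 (IER3 in HeyA8_MDR with vehicle) to 10478 (TNFAIP2 in OV2008_C13 with vehicle). The QC libraries of the HeyA8 family lay partway toward the other line of the family, most of all that of HeyA8, over genes with at least 10 counts in every library and an 8-fold or larger vehicle difference between partners. The 23 such genes that were higher in HeyA8_MDR were shifted toward HeyA8_MDR in the HeyA8 QC library by a median of 59.7% of the log2 distance, and the 51 that were lower by 23.7%. In the HeyA8_MDR QC library these 51 and 23 genes were shifted toward HeyA8 by 22.6% and 10.2%. Medians in the other lines were 15.1% (11 genes) and 1.33% (18 genes) for OV2008_C13 toward OV2008, and between -4.85% and 2.55% for SKOV3, SKOV3_TR and OV2008. In the HeyA8 QC library NFKB1 lay between the vehicle levels of the partners, but the counting interval of their log2 ratio, -0.14 to 0.04, included 0. NFKBIA, BIRC3, ICAM1 and IER3 also lay between the HeyA8 and HeyA8_MDR vehicle levels in the HeyA8 QC library. In the HeyA8_MDR QC library NFKBIA, BIRC3, ICAM1 and IER3 lay between these vehicle levels, so their rises there ran toward HeyA8. The other members did not lie between them in that library. The part of this shift in the changes was not tested. Fitted QC effects of the 10 genes are therefore also given without HeyA8, and their calls without HeyA8_MDR. Fitted effects of other genes are given only over all 6 lines, with these libraries included. Levels are given as CPM, reads of a gene scaled to a common library size. Leukocyte markers summed to at most 2.94 CPM in any library, and PTPRC did not exceed 0.266 CPM. ITGAM, the leukocyte marker that passed the filter, had 0 to 22 counts with vehicle and 0 to 62 with QC, was higher with QC in 5 of 6 lines and passed the unadjusted threshold of 0.05 over 6 lines (log2 fold change 2.02 ± 0.51, edgeR adjusted p = 0.157), and its part in the results was not tested. The 8 epithelial markers summed to between 1680 and 1936 CPM in the HeyA8 family, with 5 at 1 CPM or more, to between 896 and 1150 in the SKOV3 family and to between 4328 and 8301 in the OV2008 family. Of these, KRT19 and CDH1 reached at most 0.355 CPM in the HeyA8 family, whereas KRT19 stood at 51.4 CPM or more in the other lines. The endothelial list, led by CDH5, summed to between 98.6 and 179 CPM in the HeyA8 family and to at most 14.8 CPM elsewhere, and its part in the results of that family was not tested.

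The response of the 10 genes to QC differed from line to line rather than running in 1 direction. In HeyA8_MDR all 10 stood above vehicle, in OV2008 8 of 10 did, and in SKOV3 all 10 stood below vehicle. TNFAIP3 moved the most: it was about 3-fold above vehicle in HeyA8 and OV2008 and below vehicle only in SKOV3. Levels are CPM after scaling by TMM normalization, which sets the bulk of genes equal between libraries, and changes are log2 ratios of QC to vehicle with a prior count of 2. Counting intervals are exact 95% intervals on the 2 counts. They cover counting error only, and neither the spread between cultures nor the choice of scaling.

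**Figure D1:**
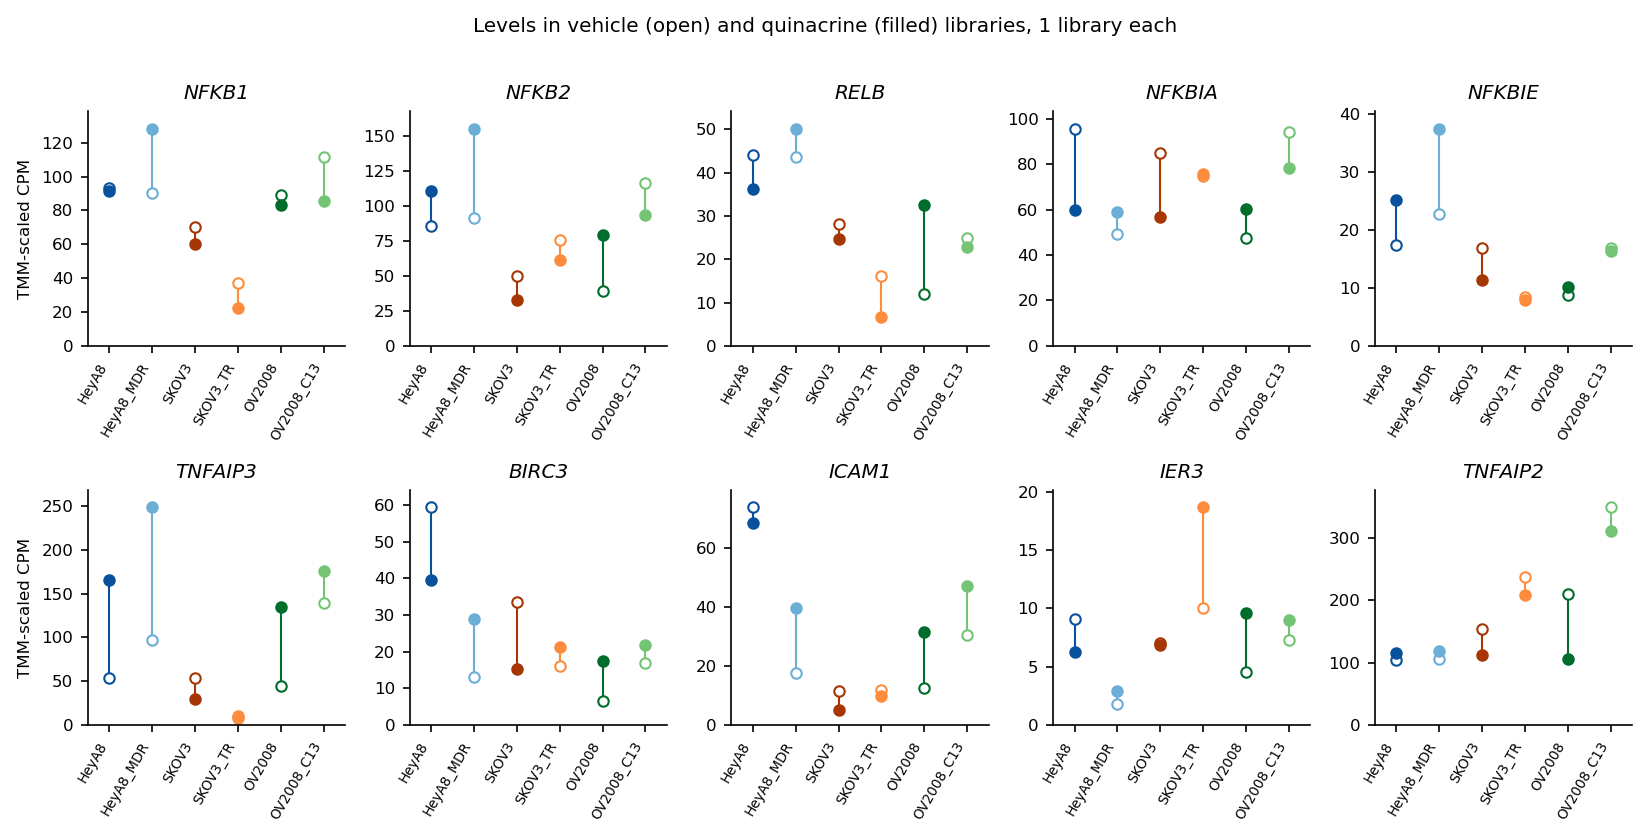
Levels of the 10 genes (TMM-scaled CPM, linear axes from 0) in the vehicle (open circles) and QC (filled circles) library of each of the 6 lines, 1 library each. TNFAIP3 goes from 54.0 to 165 CPM in HeyA8 and from 44.1 to 135 in OV2008 while it goes from 53.8 to 30.01 in SKOV3, and the QC levels of NFKBIA span a narrower range than its vehicle levels.

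Among the inhibitors, TNFAIP3 encodes A20, a ubiquitin-editing enzyme that restrains IKK activation. TNFAIP3 stood at 54.0 CPM with vehicle and 165 CPM with QC in HeyA8, 96.4 and 248 in HeyA8_MDR, 53.8 and 30.01 in SKOV3, 7.35 and 10.6 in SKOV3_TR, 44.1 and 135 in OV2008, and 139 and 175 in OV2008_C13. It was higher with QC in 5 of 6 lines, with log2 changes of 1.61, 1.36, -0.84, 0.52, 1.61 and 0.34 in that order, and no counting interval included 0. The vehicle and QC levels overlapped over lines, and vehicle levels lay 18.9-fold apart. NFKBIA encodes IkB-alpha, the rapidly resynthesized inhibitor that ends a pulse of NF-kB activity. NFKBIA went from 95.6 to 59.8 CPM in HeyA8, 49.1 to 58.8 in HeyA8_MDR, 85.0 to 56.7 in SKOV3, 74.6 to 75.7 in SKOV3_TR, 47.6 to 60.1 in OV2008 and 93.9 to 78.5 in OV2008_C13. It was lower with QC in 3 lines and higher in 3, between -0.68 (HeyA8) and 0.33 (OV2008) on the log2 scale, and its change in SKOV3_TR of 0.02 had an interval from -0.07 to 0.11. NFKBIA levels with QC lay between 56.7 and 78.5 CPM, inside the vehicle range of 47.6 to 95.6. NFKBIE, which encodes IkB-epsilon, was lowest with vehicle at 8.39 CPM in SKOV3_TR, had a median of 16.9 and was highest at 22.8 in HeyA8_MDR. It was 0.53 higher with QC in HeyA8 and 0.72 higher in HeyA8_MDR, 0.57 below vehicle in SKOV3 (log2 change -0.57), and within its counting interval of 0 in SKOV3_TR, OV2008 and OV2008_C13.

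Among the subunits, NFKB1 encodes the precursor of the p50 subunit, NFKB2 the precursor of p52, and RELB the partner of p52 in the non-canonical pathway. NFKB2 went from 85.5 to 111 CPM in HeyA8, 91.4 to 155 in HeyA8_MDR, 50.0 to 32.8 in SKOV3, 75.6 to 61.4 in SKOV3_TR, 39.0 to 79.4 in OV2008 and 116 to 93.9 in OV2008_C13. It was above vehicle in both lines of the HeyA8 family and in OV2008, where the log2 change was 1.02, and below vehicle in the other lines. RELB went from 44.1 to 36.1 CPM in HeyA8, 43.6 to 50.2 in HeyA8_MDR, 28.2 to 24.7 in SKOV3, 16.2 to 6.63 in SKOV3_TR, 11.99 to 32.6 in OV2008 and 24.9 to 22.8 in OV2008_C13. RELB had the widest range of changes among the 10 genes, from -1.28 in SKOV3_TR to 1.44 in OV2008, with counting intervals of -1.59 to -1.01 and 1.22 to 1.67. NFKB1 had the smallest mean absolute log2 change of the 10 over the 6 lines, 0.32 against 1.05 for TNFAIP3. It stood above vehicle only in HeyA8_MDR, at 128 CPM with QC and 90.1 with vehicle, and was furthest below it in SKOV3_TR, at 22.7 and 37.2 CPM.

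Among the targets, BIRC3 encodes the ubiquitin ligase cIAP2, which protects cells from TNF-induced death. BIRC3 went from 59.4 to 39.4 CPM in HeyA8, 12.9 to 28.8 in HeyA8_MDR, 33.7 to 15.3 in SKOV3, 16.1 to 21.3 in SKOV3_TR, 6.497 to 17.5 in OV2008 and 16.9 to 21.8 in OV2008_C13. It was higher with QC in all 3 resistant lines and in OV2008, and lower in HeyA8 and SKOV3. ICAM1, the adhesion molecule that binds leukocyte integrins, went from 73.8 to 68.6 CPM in HeyA8, 17.6 to 39.8 in HeyA8_MDR, 11.6 to 5.18 in SKOV3, 11.8 to 9.70 in SKOV3_TR, 12.7 to 31.4 in OV2008 and 30.4 to 47.3 in OV2008_C13. Its log2 changes ran from -1.15 in SKOV3 to 1.31 in OV2008, and it was above vehicle in 3 of 6 lines. IER3, an immediate early gene that modulates cell death, was the least abundant of the 10 in reads, from 1.82 to 10.04 CPM with vehicle (median 7.14) and from 2.90 to 18.7 with QC (median 7.91). It was above vehicle in 4 lines, most in OV2008 (log2 change 1.06) and SKOV3_TR (0.89), and its change of -0.03 in SKOV3 had an interval from -0.35 to 0.30. TNFAIP2, a TNF-induced gene that acts in membrane remodelling, ran against the others in OV2008, where it went from 210 to 106 CPM while 8 of the 10 genes, all but TNFAIP2 and NFKB1, stood above vehicle. Elsewhere its log2 changes lay between -0.45 (SKOV3) and 0.18 (HeyA8_MDR). In the annotation used here, 23.6% of the exon bases of ICAM1 are shared with the antisense gene ICAM4-AS1 and 32.6% of those of IER3 with IER3-AS1. Strand-specific counting is not stated, so the effect of this overlap on the counts of ICAM1 and IER3 is not known.

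Counted by line, 4 of the 10 genes stood above vehicle in HeyA8, where 48.5% of all tested genes did, and the median log2 change of the 10 was -0.07. In HeyA8_MDR 10 of 10 stood above vehicle (46% of all genes) with a median of 0.68, in the QC library whose shift toward HeyA8 is given above. In SKOV3 0 of 10 did (49% of all genes) with a median of -0.58. In SKOV3_TR 4 of 10 did (47.3% of all genes) with a median of -0.14. In OV2008 8 of 10 did (49.5% of all genes) with a median of 1.04, and in OV2008_C13 4 of 10 did (47.7% of all genes) with a median of -0.09. In OV2008_C13 that count was 6 of 10 when libraries were scaled by their totals alone, which moved the median of all tested genes by 0.12 in that line, by -0.13 in HeyA8_MDR and by -0.12 in SKOV3_TR. HeyA8_MDR kept 10 of 10 above vehicle, SKOV3 0 of 10 and OV2008 8 of 10 under that scaling and under DESeq2 size factors. Over the 60 changes, 30 were above 0, and no gene moved in the same direction in all 6 lines. The 3 sensitive lines held both SKOV3, where the genes were lowest relative to vehicle, and OV2008, where they were highest. With 1 library per line and treatment these counts have no replicate check.

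**Figure D2:**
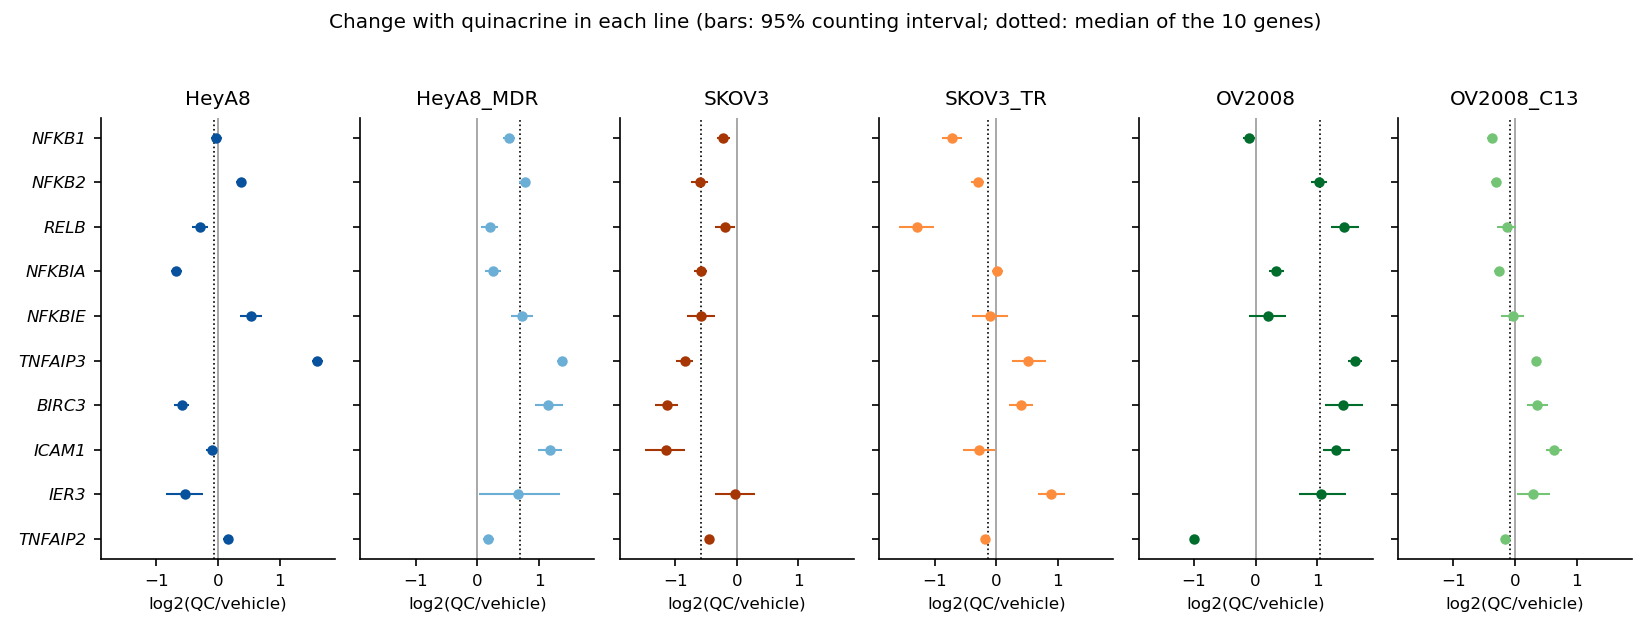
Log2 ratio of QC to vehicle (x axis) for the 10 genes in each of the 6 lines, with exact 95% counting intervals as bars and the median of the 10 genes as a dotted line. All 10 points lie right of 0 in HeyA8_MDR and left of 0 in SKOV3, and the medians run from -0.58 in SKOV3 to 1.04 in OV2008.

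Over all 6 lines, TNFAIP3 was the gene of the 10 that passed the study's unadjusted threshold of 0.05. It rose with QC by a log2 fold change of 0.79 ± 0.28 (SE, n = 6 lines; edgeR quasi-likelihood, adjusted p = 0.217 over all genes), higher in 5 of 6 lines, and it did not pass after Benjamini-Hochberg adjustment. The 1 of 10 genes that passed unadjusted compares with 15.2% of all genes tested, of which 7.99% were higher and 7.18% lower with QC. After adjustment 0 of 18720 genes passed (0%) with edgeR, although 2840 passed unadjusted and DESeq2 called 518 after adjustment. The TNFAIP3 call was kept when any line outside the HeyA8 family was left out. Without HeyA8 its estimate was 0.62 (edgeR quasi-likelihood, unadjusted p = 0.0507), and without HeyA8_MDR 0.65 (unadjusted p = 0.0552). Both p-values lay just above the unadjusted threshold. The TNFAIP3 estimate was 1.10 without SKOV3 (adjusted p = 0.0720), and over the alternatives its adjusted p ran from 6.84e-05 without a filter on low counts to 1 without the cell line block. IER3 followed with 0.39 ± 0.23 (adjusted p = 0.440), which passed unadjusted at 0.58 without HeyA8, and TNFAIP2 with -0.24 ± 0.15 (adjusted p = 0.476). The remaining 7 genes had estimates between -0.15 (NFKB1 and NFKBIA) and 0.29 (ICAM1), with SEs between 0.15 and 0.29. Of these, ICAM1 passed unadjusted without SKOV3, at 0.54, and NFKB1 without HeyA8_MDR, at -0.30. NFKBIA had a log2 fold change of -0.15 ± 0.15 (adjusted p = 0.671) and RELB of -0.04 ± 0.26 (adjusted p = 0.956). Without HeyA8 the estimates of these 7 genes and TNFAIP2 were -0.18 for NFKB1, 0.11 for NFKB2, 0.0089 for RELB, -0.048 for NFKBIA, 0.044 for NFKBIE, 0.44 for BIRC3, 0.38 for ICAM1 and -0.32 for TNFAIP2. The median of the 10 genes was 0.14, beside 0.00 for all genes tested.

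Sensitive and resistant lines were then taken apart. In the sensitive lines 0 of 10 genes passed the unadjusted threshold with edgeR, which 6.59% of all genes (1234) did. DESeq2 called 1 of 10, TNFAIP3, beside 1156 of all genes. The estimates farthest from 0 were TNFAIP3 with 0.84 ± 0.42 (adjusted p = 0.755) and TNFAIP2 with -0.43 ± 0.22 (adjusted p = 0.760). Single lines moved these values: TNFAIP3 was 1.60 without SKOV3, past the unadjusted threshold (adjusted p = 0.0566), and 0.39 without HeyA8. TNFAIP2 was -0.72 without HeyA8, past the unadjusted threshold. BIRC3, at -0.16 ± 0.40, was -0.86 without OV2008, past the unadjusted threshold, and 0.36 without SKOV3, not past it. NFKBIA, at -0.31 ± 0.22, was -0.63 without OV2008 and NFKB2, at 0.27 ± 0.30, was 0.68 without SKOV3, both past it. Without HeyA8 the remaining estimates were -0.16 for NFKB1, 0.21 for NFKB2, 0.61 for RELB, -0.13 for NFKBIA, -0.20 for NFKBIE, 0.10 for BIRC3, 0.11 for ICAM1 and 0.51 for IER3, so that BIRC3 and NFKBIE, at 0.05 with HeyA8, changed sign. Without HeyA8_MDR 0 of 10 passed unadjusted with edgeR.

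In the resistant lines 0 of 10 passed unadjusted with edgeR or DESeq2 (6.03% of all genes, 1128, with edgeR). The largest estimates were TNFAIP3 with 0.75 ± 0.40 (adjusted p = 0.832), BIRC3 with 0.64 ± 0.38 (adjusted p = 0.839), IER3 with 0.62 ± 0.33 (adjusted p = 0.832) and ICAM1 with 0.53 ± 0.39 (adjusted p = 0.860). These 4 estimates stayed above 0 when any line was left out, the lowest being 0.41 for TNFAIP3, 0.37 for BIRC3 and 0.18 for ICAM1, all without HeyA8_MDR, and 0.48 for IER3 without SKOV3_TR. Because all 6 lines share 1 estimate of the spread, leaving out a sensitive line also moved calls here: TNFAIP3 passed unadjusted without SKOV3 or OV2008, and BIRC3 without OV2008, at estimates of 0.75, 0.75 and 0.64. Without HeyA8 0 of 10 passed. NFKB1, at -0.19 ± 0.22, was -0.56 without HeyA8_MDR, past the unadjusted threshold. After adjustment 0 genes passed in either group (0% of all genes) with edgeR, and DESeq2 called 31 in the sensitive and 0 in the resistant lines.

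Whether the QC effect differed with resistance was tested as a contrast of the group effects. It passed the unadjusted threshold for 0 of 10 genes with edgeR or DESeq2, beside 1.16% of all genes (217) with edgeR, and after adjustment 0 genes passed (0%) with edgeR and 1 with DESeq2. The largest differences, resistant minus sensitive, were 0.80 ± 0.55 for BIRC3 (adjusted p = 0.9998) and -0.68 ± 0.50 for RELB. Leaving out OV2008 took the BIRC3 difference to 1.497 and that of ICAM1 from 0.50 to 1.13, both past the unadjusted threshold, while without SKOV3 BIRC3 stood at 0.28. TNFAIP3 differed by -0.09 ± 0.58 and by -0.85 without SKOV3, past the unadjusted threshold, and TNFAIP2 by 0.37 ± 0.31 and by 0.67 without HeyA8, also past it. Without HeyA8 the other differences were 0.54 for BIRC3, -0.99 for RELB, 0.42 for ICAM1, 0.11 for IER3, 0.13 for NFKBIA, 0.40 for NFKBIE, -0.16 for NFKB2, -0.026 for NFKB1 and 0.36 for TNFAIP3, which changed sign. Without HeyA8_MDR 0 of 10 passed unadjusted with edgeR. The changes of the 3 sensitive and the 3 resistant lines overlapped for all 10 genes, while they did not overlap for 5.22% of all genes tested.

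**Figure D3:**
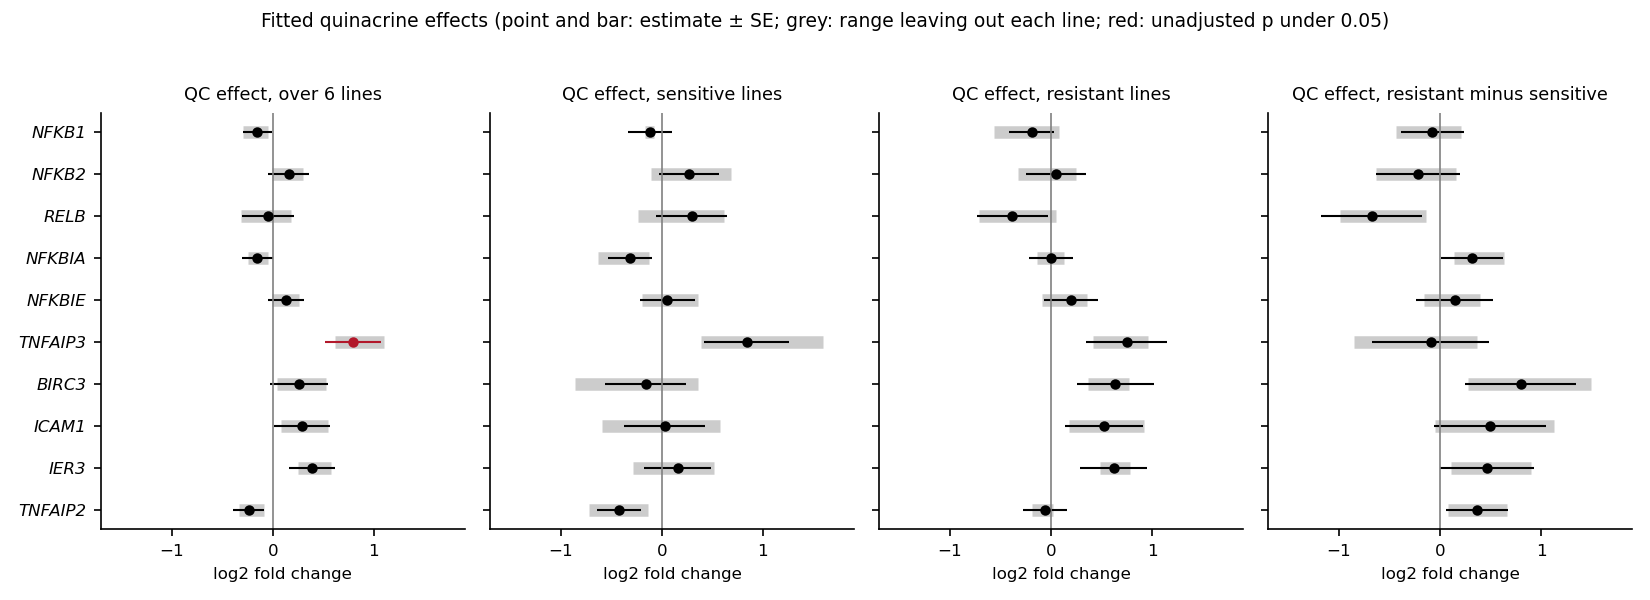
Fitted QC effects (log2 fold change, x axis) over 6 lines, in sensitive lines, in resistant lines and as their difference, with points and thin bars for the estimate ± SE and grey bars for the range when each line is left out. TNFAIP3 over 6 lines (0.79, red) is the estimate that passed the unadjusted threshold, and the grey bars of BIRC3 and ICAM1 in sensitive lines extend to both sides of 0.

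Levels without QC were compared per kilobase of exon (CPM per kb), since longer transcripts yield more reads. The length is the union of all annotated exons of a gene, which can exceed that of any 1 transcript, so the order also depends on the annotation. This length includes the exon bases that ICAM1 and IER3 share with antisense genes. For NFKB1 it is 15679 bases, beside a median of 89.7 CPM with vehicle before division by length. By the median of the 6 vehicle libraries, TNFAIP2 was the most abundant at 36.0 CPM per kb (20.4 to 69.0), followed by NFKBIA at 23.5 (14.0 to 28.2), NFKB2 at 14.4, RELB at 8.87, TNFAIP3 at 8.36, NFKBIE at 6.55, NFKB1 at 5.72, IER3 at 5.29, ICAM1 at 4.38 and BIRC3 at 2.21. The ranges of neighbouring genes in this order overlapped throughout. TNFAIP3 varied most between lines, 18.9-fold from 1.14 in SKOV3_TR to 21.5 in OV2008_C13, followed by BIRC3 with 9.14-fold, and NFKBIA varied least with 2.01-fold.

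With vehicle, the ratios of resistant to sensitive line differed between the families, each of which is 1 pair of single libraries. A family pattern therefore cannot be told apart from the deviation of 1 library. In the OV2008 family all 10 were higher in OV2008_C13 than in OV2008, where 51.6% of all tested genes were, with a median log2 ratio of 1.02 and a range from 0.32 (NFKB1) to 1.65 (TNFAIP3). In the HeyA8 family 4 of 10 were higher in HeyA8_MDR (47.2% of all genes), and IER3, BIRC3 and ICAM1 stood at log2 ratios of -2.32, -2.20 and -2.07. In the SKOV3 family 4 of 10 were higher in SKOV3_TR (50% of all genes), and TNFAIP3 stood at -2.87, with 53.8 CPM in SKOV3 and 7.35 in SKOV3_TR. TNFAIP3 was thus lower in SKOV3_TR but higher in HeyA8_MDR (0.84) and OV2008_C13 (1.65) than in their partners. NFKB2 and TNFAIP2 had ratios above 0 in all 3 families, at 0.10, 0.60 and 1.57 for NFKB2 and 0.02, 0.62 and 0.73 for TNFAIP2, and the counting interval of TNFAIP2 in the HeyA8 family, from -0.06 to 0.11, included 0. Tested over the 3 families, 0 of 10 genes passed the unadjusted threshold with edgeR or DESeq2, beside 3.77% of 16091 genes tested (606) with edgeR, and after adjustment 0 genes passed (0%) with edgeR and 41 with DESeq2. NFKB2 came nearest (log2 fold change 0.76 ± 0.36, adjusted p = 0.975), and TNFAIP3 had 0.07 ± 0.98 (adjusted p = 0.996). TNFAIP3 was 1.26 without the SKOV3 family and BIRC3, at -0.67 ± 0.76, was -1.59 without the OV2008 family, both past the unadjusted threshold. This fit has 2 residual degrees of freedom. Vehicle levels of sensitive and resistant lines overlapped for all 10 genes, while they did not overlap for 3.56% of all genes tested.

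**Figure D4:**
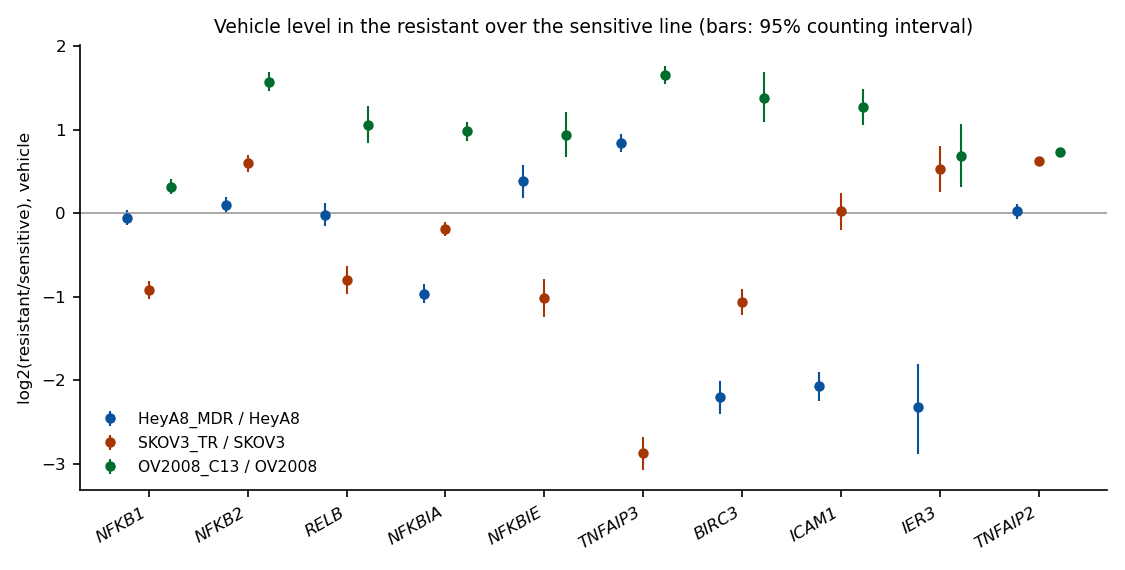
Log2 ratio of the vehicle level in the resistant line to that in its sensitive partner (y axis) for the 10 genes, with exact 95% counting intervals, in the HeyA8, SKOV3 and OV2008 families. All 10 OV2008 family points lie above 0, while TNFAIP3 spans -2.87 in the SKOV3 family to 1.65 in the OV2008 family.

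In the OV2008 family the vehicle ratio and the QC change share the OV2008 vehicle library, so their values are set side by side without a test. RELB was 1.06 higher in OV2008_C13 than in OV2008 with vehicle on the log2 scale, and 1.44 higher with QC than with vehicle in OV2008. For BIRC3 these values were 1.38 and 1.41, for ICAM1 1.27 and 1.31, for TNFAIP3 1.65 and 1.61, for NFKB2 1.57 and 1.02, and for IER3 0.68 and 1.06. For NFKBIA they were 0.98 and 0.33, and for NFKBIE 0.94 and 0.20. TNFAIP2 (0.73 and -0.99) and NFKB1 (0.32 and -0.10) had values of opposite sign.

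Other genes of the pathway were taken from lists by role, 68 genes of which 60 were tested. The 16 tested target genes outside the 10 members, among them chemokines, IL6, PLAU and GADD45B, had their highest medians in OV2008 and HeyA8_MDR and their lowest in SKOV3. Of these 16, 12 stood above vehicle in OV2008 with a median log2 change of 1.002, 13 in HeyA8_MDR with a median of 0.72, and 3 in SKOV3 with a median of -0.55. Of all tested genes 49.5%, 46% and 49% stood above vehicle in these lines. In HeyA8, SKOV3_TR and OV2008_C13 the counts of the 16 were 9, 5 and 9. The ligand gene IL1A, which encodes interleukin-1 alpha, went from 78.5 to 282 CPM in OV2008, 40.8 to 93.4 in HeyA8_MDR and 68.1 to 35.6 in SKOV3, and IL1B from 180 to 391 in OV2008 and 7.57 to 3.45 in SKOV3. IL1A and IL1B were each above vehicle in 4 of the 6 lines. The adaptor and IKK lists had medians nearer 0: the 8 tested IKK complex and upstream kinase genes had medians between -0.00 and 0.24 over the 6 lines, and the 11 tested adaptors and ubiquitin ligases between -0.34 and 0.08. Of the 8 receptor genes, 2 stood above vehicle in OV2008 (median -0.48), 3 in HeyA8_MDR (median -0.01) and 0 in SKOV3 (median -0.43). Of the other subunit genes, RELA and REL, 2 stood above vehicle in OV2008 (median 0.10), 0 in HeyA8_MDR (median -0.81) and 1 in SKOV3 (median 0.001). The lists were written with earlier results of these data known, so these counts are a description.

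**Figure D5:**
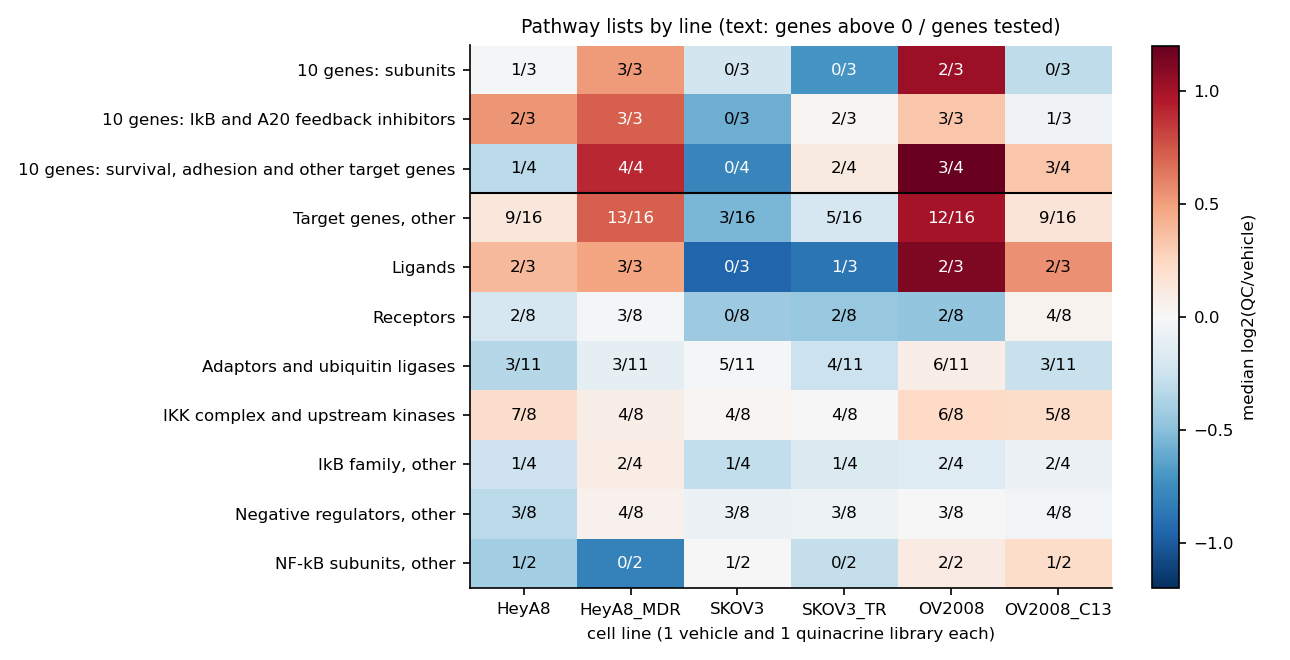
Median log2 ratio of QC to vehicle (colour) of each gene list in each of the 6 lines, with the number of genes above 0 out of those tested as text, the 10 described genes above the black line. Target genes outside the 10 are at 12 of 16 above 0 in OV2008, 13 of 16 in HeyA8_MDR and 3 of 16 in SKOV3.

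Over 6 lines, 8 of the 60 other pathway genes rose and 6 fell at the unadjusted threshold, where 7.99% of all genes were higher and 7.18% lower, 0 passed after adjustment with edgeR (smallest adjusted p = 0.146), and their median log2 fold change was -0.01. The other subunit genes did not pass: RELA, which encodes the p65 subunit, had -0.01 ± 0.11 (adjusted p = 0.974) and lay between 107 and 218 CPM in all 12 libraries, and REL had -0.33 ± 0.24 (adjusted p = 0.542). Of the 8 IKK complex and upstream kinase genes 3 rose and 0 fell. TAB2, an adaptor of the TAK1 kinase, rose by 0.46 ± 0.12 (adjusted p = 0.157) and was higher in 6 of 6 lines, and CHUK, which encodes IKK-alpha, rose by 0.42 ± 0.14 (adjusted p = 0.210) and was higher in 5. IKBKB, which encodes the catalytic IKK-beta, had -0.04 ± 0.12 (adjusted p = 0.907), and IKBKG, whose reads may be split with a near-identical copy, had -0.02 ± 0.17 (adjusted p = 0.976). Of the 8 receptor genes 3 fell and 0 rose. TLR3, a sensor of double-stranded RNA, fell by 1.09 ± 0.30 on the log2 scale (adjusted p = 0.169), and LTBR, the lymphotoxin beta receptor that feeds the non-canonical pathway, had -0.37 ± 0.12 (adjusted p = 0.198) and was lower in 6 of 6 lines.

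Of the 11 tested adaptors and ubiquitin ligases, BIRC2, the close relative of BIRC3, rose by 0.44 ± 0.16 (adjusted p = 0.233), and TRADD, the adaptor of the TNF receptor, fell, with -0.41 ± 0.14 (adjusted p = 0.213). The negative regulators other than the members held 2 genes that rose and 1 that fell among 8 tested. TAX1BP1, a partner of A20, rose by 0.55 ± 0.13 (adjusted p = 0.146) and was higher in 6 of 6 lines, from 98.6 CPM with vehicle and 213 with QC in HeyA8_MDR to 149 and 173 in SKOV3. TNIP3, another A20-binding protein, fell, with -2.10 ± 0.47 (adjusted p = 0.149), but it had at most 1 count in any SKOV3, SKOV3_TR or OV2008 library and at most 11 in OV2008_C13. It went from 286 to 58 counts in HeyA8 and from 51 to 16 in HeyA8_MDR. Its estimate thus rests largely on the HeyA8 family, and the part in it of the library shift given above was not tested. The other IkB family genes (0 of 4) did not pass, NFKBID with -0.33 ± 0.20 (adjusted p = 0.440) and NFKBIZ with -0.24 ± 0.17 (adjusted p = 0.536), nor did the 3 ligand genes, IL1A with 0.53 ± 0.30 (adjusted p = 0.419) and IL1B with 0.25 ± 0.31 (adjusted p = 0.747). Of the 16 other target genes 2 rose and 1 fell. PLAU, the urokinase gene, rose by 0.88 ± 0.26 (adjusted p = 0.180) and was higher in 6 of 6 lines, and GADD45B, a stress-induced gene, rose by 0.56 ± 0.15 (adjusted p = 0.169) and was higher in 5.

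The tested genes outside the 10 whose 6 log2 changes lay nearest to those of TNFAIP3, the member with the largest mean absolute change, were JAKMIP3, CARNS1 and IQCD. Their root-mean-square differences from TNFAIP3 were 0.24, 0.33 and 0.38, beside a root-mean-square change of TNFAIP3 itself of 1.17. These 3 genes had as few as 0, 0 and 5 counts in a library, so that their changes are less precise than those of TNFAIP3. Nearest to NFKBIA were CD163L1, PRIM1 and C8orf58, with differences of 0.17, 0.18 and 0.19 beside a root-mean-square change of NFKBIA of 0.42. CD163L1 had as few as 0 counts in a library and a change of 0 in SKOV3_TR, PRIM1 at least 154 counts and C8orf58 at least 82.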

How the data were processed

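Libraries were made with a TruSeq RNA kit, and the authors deposited raw read counts per gene in 1 table, a column per library. Per the labels, reads were processed with STAR 2.7.3a, HTSeq 0.6.1p1 and GRCh38.p13, whereas the study's methods name TopHat and hg19. The table names versioned Ensembl IDs and no build, and the strand setting is not given in the sources used here. Symbols were paired with 58620 of 60669 IDs, and unpaired IDs hold 0.132% of counts. Exon lengths and overlaps came from GENCODE on GRCh37, and promoter windows and their coordinates from RefSeq on GRCh38.p14.

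Tests used edgeR 4.0.16 under R 4.3.3 (filterByExpr with a minimum count of 10 and total of 15, TMM, quasi-likelihood F-tests, two-sided, Benjamini-Hochberg over all genes tested). Cell line was a block, with a QC effect over all lines or per group, which share 1 estimate of the spread, and family was the block among vehicle libraries. Vehicle and QC libraries of a line are paired through the line, and the correlation of their deviations from group means over genes was 0.893 to 0.929. Levels per line are TMM-scaled CPM. The depth was 17782556 to 30585059 counts per library, and intervals (exact binomial, 95%) cover counting error only. Alternatives were no block, DESeq2 1.42.0, DESeq2 size factors, library size, no filter, a floor of 10 counts per library, leaving out each line or family, a family term for the difference and prior counts of 0.5 and 5. The fit was tested on simulated data in which a changed gene had the same change in all lines. The changes of the members differed between lines, so that simulation does not show how often such changes are called. Named genes are the 10 members, RELA, REL, CHUK, IKBKB, IKBKG, the 2 genes with the smallest p of each pathway list, and the 3 nearest neighbours of NFKBIA and TNFAIP3. TNFAIP3 is the member with the largest mean absolute change. IL6 and marker genes were named outside this rule, after their values were seen. The members and lists were chosen with earlier results of these data known.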

Additional observations from a re-analysis of the deposited data

How the results depend on the processing

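Each line and treatment had 1 library, so every group value rests on 3 lines and line values on counting error alone. Counts of members at an unadjusted p under 0.05 moved as follows, and counts over all genes are given after them. Over 6 lines the 1 member called became 0 without the replicate block and ranged from 1 to 2 when each line was left out (2 without SKOV3). In sensitive lines 0 became 1 with DESeq2, 1 without a filter, and 0 to 2 with a line left out. In resistant lines 0 became 3 without a filter and 0 to 2 with a line left out. For the difference 0 became 2 without a filter and 0 to 2 with a line left out, and for vehicle levels 0 to 1 with a family left out. 

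Over all genes, the 2840 called over 6 lines became 117 without the block, and 2033 to 3103 with a line left out. The 0 adjusted calls became 518 with DESeq2, 791 without a filter and 0 to 1 with a line left out. In sensitive lines 1234 became 30 without the block, 1156 with DESeq2, 1918 without a filter and 808 to 2012 with a line left out. The adjusted 0 there became 31 with DESeq2, 195 without a filter and 0 to 18 with a line left out. In resistant lines 1128 became 23 without the block, 1637 without a filter and 416 (without HeyA8_MDR) to 1376 with a line left out. The adjusted 0 there became 35 without a filter. For the difference 217 became 6 without the block, 501 without a filter, 120 with at least 10 counts in every library, 438 with a family term and 187 to 540 with a line left out, and the adjusted 0 became 1 with DESeq2 and 5 without a filter. For vehicle levels 606 became 104 without the block, 1058 with DESeq2, 1583 without a filter and 572 to 705 with a family left out, and the adjusted 0 became 41 with DESeq2 and 146 without a filter. The causes were not tested.

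Of 270 member tests with a line or family left out, 211 kept their direction and side of the threshold, 2 lost the call, 18 gained it and 39 changed sign. The ranges of the log2 fold changes that changed sign follow. Over 6 lines they ran for RELB from -0.32 to 0.18, NFKBIE from -0.0081 to 0.26 and for NFKB2 from -0.011 to 0.30. In sensitive lines they ran for NFKBIE from -0.20 to 0.36, BIRC3 from -0.86 to 0.36, NFKB2 from -0.11 to 0.68, RELB from -0.24 to 0.61, ICAM1 from -0.60 to 0.57 and for IER3 from -0.28 to 0.51. In resistant lines they ran for NFKB2 from -0.32 to 0.25, NFKBIA from -0.14 to 0.12, NFKBIE from -0.084 to 0.36, NFKB1 from -0.56 to 0.082, RELB from -0.71 to 0.052 and for TNFAIP2 from -0.19 to 0.022. For the difference they ran for TNFAIP3 from -0.85 to 0.36, NFKBIE from -0.16 to 0.40, ICAM1 from -0.045 to 1.13, NFKB1 from -0.43 to 0.21 and for NFKB2 from -0.64 to 0.16. For vehicle levels they ran for NFKBIA from -0.54 to 0.40, NFKBIE from -0.28 to 0.68, TNFAIP3 from -0.97 to 1.26, BIRC3 from -1.59 to 0.15, ICAM1 from -0.99 to 0.65, IER3 from -0.84 to 0.61, NFKB1 from -0.45 to 0.15 and for RELB from -0.37 to 0.53.
Under the other alternatives, 297 of 310 member tests kept direction and call, and 5 changed sign at values near 0: without the block RELB over 6 lines at 0.027, NFKBIA in resistant lines at -0.032 and NFKB1 in the difference at 0.094, and NFKBIA in resistant lines at -0.029 with library size and -0.014 without a filter. The block changed no other member's call than that of TNFAIP3 over 6 lines (0.98 without the replicate block, adjusted p = 1). Of 240 member changes per line under other scalings and prior counts, 225 stayed inside their counting interval and 15, all with library size, did not. The 30 changes above 0 stayed within 1.5 times that count.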
